A study of Mus musculus with 20 samples.

Results

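The 50 genes described here encode subunits of the mitochondrial respiratory chain that are read from nuclear DNA: 27 of complex I (the Ndufa, Ndufb, Ndufs and Ndufv genes), 4 of complex II (Sdha to Sdhd), 7 of complex III (Cyc1 and the Uqcr genes), the mobile carrier cytochrome c (Cycs), and 11 of complex IV (the Cox genes). They were chosen by function, as a list of gene symbols matched to the array's probes through RefSeq accessions. All 50 were found among the 21154 genes that the array could name, and each was well above background on all 20 arrays. Of the 50, 39 had 1 named probe and 11 had several, and the brightest probe stood for the gene. The genes lie on 17 chromosomes, with at most 6 on any of them.

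RNA came from male C57BL/6J mice that were 5 weeks old when the diets began and ate them for 13 weeks. One diet was a high fat chow, 60% of its calories from fat, with 2% by weight of porphyran added (HFD+PP), where porphyran is a sulfated sugar polymer of red seaweed. Another was that chow with a nori extract in place of porphyran, again at 2% by weight (HFD+Ex). The plain high fat chow (HFD) and a control chow with 10% of calories from fat (CD) were the others. Brown fat, liver, mesenteric white fat, ileum and colon of the 7 mice on a diet were pooled, so a tissue on a diet is 1 pool and 1 one-colour array, and the 5 arrays of a diet share their mice. A level is the log2 processed signal minus the array's 75th percentile, so levels compare 1 gene between arrays and never 1 gene with another.

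The respiratory chain passes electrons from food to oxygen across the inner mitochondrial membrane. Complex I takes them from NADH and complex II from succinate, complex III hands them from ubiquinol to cytochrome c, and complex IV gives them to oxygen. Complexes I, III and IV pump protons as they do so, and each also holds subunits encoded by mitochondrial DNA, which were not analysed here. Brown fat cells are packed with mitochondria and use the proton gradient to make heat through the uncoupling protein Ucp1, whereas white fat cells hold few mitochondria.

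Nuclear genes of the chain are known to be read under the control of NRF1, of ETS family factors such as GABPA, of the estrogen-related receptors (ERR) and of YY1, so the promoters of the set were searched for short letters that these factors bind. RefSeq promoter windows of 300 bases (GRCm38.p6, 250 before to 50 after the start) were matched for 39 of the 50 genes. The NRF1 letters, GCGC followed by A, any base and GCGC, stood on either strand in 8 of the 39 genes, or 20.5%. The share was 7.51% over the 16756 array genes with a window. A gene counts where any of its windows holds the letters. CCGGAAG (ETS) stood in 10, or 25.6%, against 13.4%. AAGATGGC (YY1) stood in 6, or 15.4%, against 3.69%, and all 6 matches read along the gene and began 22 to 38 bases downstream of the first transcribed base. AAGGTCA (ERR) stood in 2, or 5.13%, against 4.7%, and GGGCGG (SP1, a general promoter factor) in 18, or 46.2%, against 51.5%. These are letter matches, not measured binding.

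Of the 4 windows printed here, Uqcrc1 and Cox6a1 carry the NRF1 letters and had one of the largest and one of the smallest brown fat differences described below. Sdhd carries 3 of the motifs, and Ndufs4, with the YY1 letters, had the largest difference between HFD and CD in brown fat. Capitals mark the NRF1, ETS, YY1 and ERR letters on either strand. GCGCATGCGC reads the same on both strands and counts once, and no different marked motifs overlap.
Uqcrc1 (complex III core protein), chr9:108936398-108936697, plus strand: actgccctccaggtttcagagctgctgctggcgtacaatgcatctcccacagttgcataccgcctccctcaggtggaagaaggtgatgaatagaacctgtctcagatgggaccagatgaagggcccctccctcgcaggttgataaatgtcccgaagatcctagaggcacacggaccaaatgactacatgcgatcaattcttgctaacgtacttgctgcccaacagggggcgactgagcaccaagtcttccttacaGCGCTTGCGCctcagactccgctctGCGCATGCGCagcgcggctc
Cox6a1 (complex IV), chr5:115348909-115349208, minus strand: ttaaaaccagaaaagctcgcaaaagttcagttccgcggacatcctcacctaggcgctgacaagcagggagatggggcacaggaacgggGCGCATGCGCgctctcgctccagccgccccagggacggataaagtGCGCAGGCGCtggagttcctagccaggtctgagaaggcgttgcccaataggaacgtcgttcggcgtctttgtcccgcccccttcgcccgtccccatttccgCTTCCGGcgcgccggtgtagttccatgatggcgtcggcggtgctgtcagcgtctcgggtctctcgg
Sdhd (membrane anchor of complex II), chr9:50603800-50604099, minus strand: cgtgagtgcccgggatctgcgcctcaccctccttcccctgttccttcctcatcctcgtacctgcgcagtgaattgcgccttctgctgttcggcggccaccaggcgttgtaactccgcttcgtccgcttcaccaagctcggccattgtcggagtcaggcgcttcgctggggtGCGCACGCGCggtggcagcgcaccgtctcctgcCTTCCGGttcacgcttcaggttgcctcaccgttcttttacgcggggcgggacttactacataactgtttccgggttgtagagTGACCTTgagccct
Ndufs4 (complex I), chr13:114388045-114388344, minus strand: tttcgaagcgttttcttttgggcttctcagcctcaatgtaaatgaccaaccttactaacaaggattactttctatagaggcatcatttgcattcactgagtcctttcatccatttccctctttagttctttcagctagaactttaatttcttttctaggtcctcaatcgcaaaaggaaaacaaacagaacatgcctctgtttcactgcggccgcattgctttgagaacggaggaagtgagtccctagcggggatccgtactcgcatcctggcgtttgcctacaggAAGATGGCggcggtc
Uqcrc1 has 2 NRF1 matches, beginning 5 and 30 bases downstream of the start. In Cox6a1 the NRF1 letters begin 162 and 117 bases upstream and the ETS letters 16 bases upstream. The 8 genes with the NRF1 letters had a median difference between brown fat and mesenteric fat of 2.73 log2, against 2.95 log2 in the 31 without them. For the ETS letters the medians were 2.98 log2 in 10 genes with them and 2.83 log2 in 29 without. Genes with the NRF1 letters ran from 1.93 to 3.86 log2 and genes without them from 1.92 to 3.63 log2.

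The levels of these genes varied more between tissues than between the diets of a tissue. The median gene had a standard deviation of 1.12 log2 between the 5 tissue means and of 0.124 log2 between arrays of the same tissue. All 50 genes had their highest tissue mean in brown fat. For 48 of them liver came next, the exceptions being Cycs, with ileum next, and Cox6a2, with mesenteric fat next. The lowest mean was in mesenteric fat for 43 genes and in ileum for the other 7 (Ndufa7, Ndufa10, Ndufb3, Ndufb6, Ndufb8, Ndufs3 and Cox6a2). The defining markers matched the tissue labels: the 12 brown fat cell markers summed to between 11.63 and 11.93 log2 on the brown fat arrays, against 4.54 to 5.19 log2 on the mesenteric fat arrays. Mesenteric fat carried the white fat cell markers at 10.69 to 10.93 log2, but brown fat carried them too, at 10.96 to 11.32 log2.

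**Figure D1:**
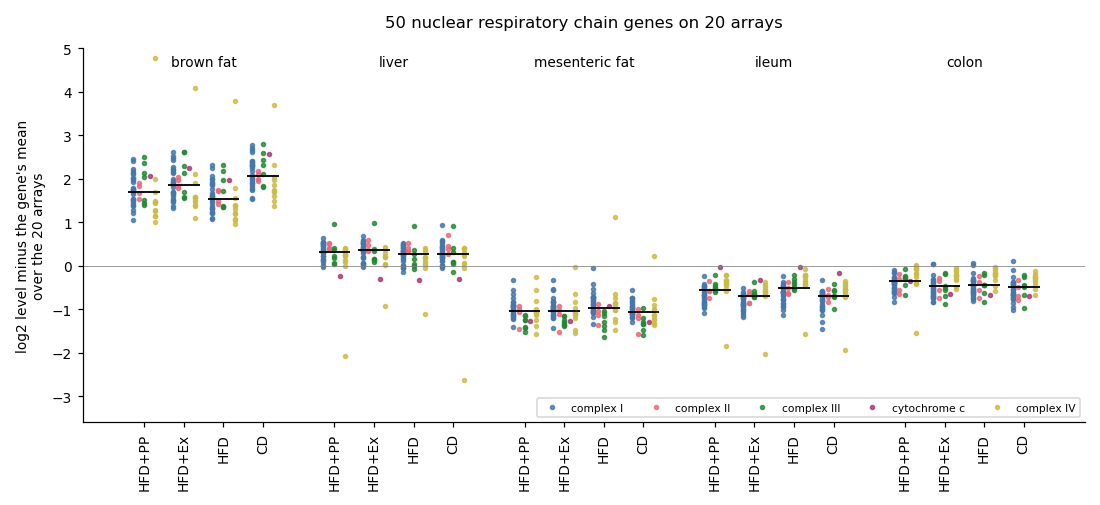
Levels of the 50 genes on the 20 arrays, as log2 level minus the gene's own mean over all arrays. Each point is 1 gene, coloured by complex, and each black bar is the median of the 50 on that array; the median of every brown fat array lies above the medians of the other tissues' arrays, and the single point that leaves the group in brown fat, liver and ileum is Cox6a2.

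Brown fat had more RNA of every one of the 50 genes than mesenteric fat, by 1.92 to 3.99 log2 with a median of 2.87 log2, or 7.31-fold. All 50 were called higher (limma with a term for diet, 4 arrays per tissue, Benjamini-Hochberg adjusted p under 0.05 over 16813 genes), and the highest adjusted p among them was 1.86e-07. Over all genes tested, 75.5% were called in this comparison and 42.6% were called higher. The 4 brown fat arrays lay above the 4 mesenteric fat arrays for each of the 50 genes. The same count was not made over all genes, so it cannot be weighed against them. The 4 arrays of a tissue are pools on 4 different diets, so the p-values measure the spread over those pools. In such tissue RNA, fewer cells of a type and less RNA per cell cannot be told apart.

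Complex III and cytochrome c had the largest median differences, of 3.43 and 3.41 log2. Cyc1, the haem-bearing cytochrome c1 of complex III, stood at 8.91, 9.01, 8.72 and 9.21 log2 in brown fat on HFD+PP, HFD+Ex, HFD and CD, against 4.87, 5.05, 5.02 and 4.93 log2 in mesenteric fat on the same diets. The lowest brown fat array was thus far above the highest mesenteric fat array. The difference was 3.99 log2 (SE 0.098, 15.9-fold, limma adjusted p = 5.91e-13). Uqcrc1, a core protein that frames complex III, averaged 7.45 ± 0.21 log2 in brown fat and 3.59 ± 0.13 log2 in mesenteric fat (SD, n = 4 each), a 14.6-fold difference. Uqcrh, the acidic hinge protein next to cytochrome c1, had the smallest difference of the complex, 2.62 log2. Cycs averaged 8.75 ± 0.27 log2 in brown fat and 5.34 ± 0.17 log2 in mesenteric fat (SD, n = 4 each), or 10.6-fold higher.

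Complex II, the only one encoded wholly by nuclear genes, differed evenly. Its 4 subunits ran from 2.77 log2 for Sdhc to 3.16 log2 for Sdhd, both of them membrane anchors, with the flavin subunit Sdha and the iron-sulfur subunit Sdhb between them. The 27 genes of complex I had a median of 2.73 log2. Ndufa10, an accessory subunit, was the highest of them, at 6.77 ± 0.20 log2 in brown fat and 3.14 ± 0.02 log2 in mesenteric fat (SD, n = 4 each; 12.4-fold, limma adjusted p = 8.54e-13). Ndufa13, known also as a cell death regulator, was the lowest at 1.97 log2. The core subunits that carry the flavin or iron-sulfur clusters (Ndufs1, Ndufs7, Ndufs8, Ndufv1 and Ndufv2) all had differences of more than 3 log2. So did accessory subunits besides Ndufa10, among them Ndufb6 at 3.25 log2, Ndufa9 at 3.21 log2 and Ndufb5 at 3.09 log2.

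Complex IV had the lowest median, 2.53 log2, and the widest range. At its low end were Cox8a at 1.92 log2 and Cox6a1 at 1.93 log2, both isoforms found in most tissues. Cox8a averaged 9.50 ± 0.19 log2 in brown fat and 7.58 ± 0.08 log2 in mesenteric fat (SD, n = 4 each), which is 3.79-fold. At its high end was Cox6a2, the isoform of striated muscle and brown fat, with 3.83 log2.

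**Figure D2:**
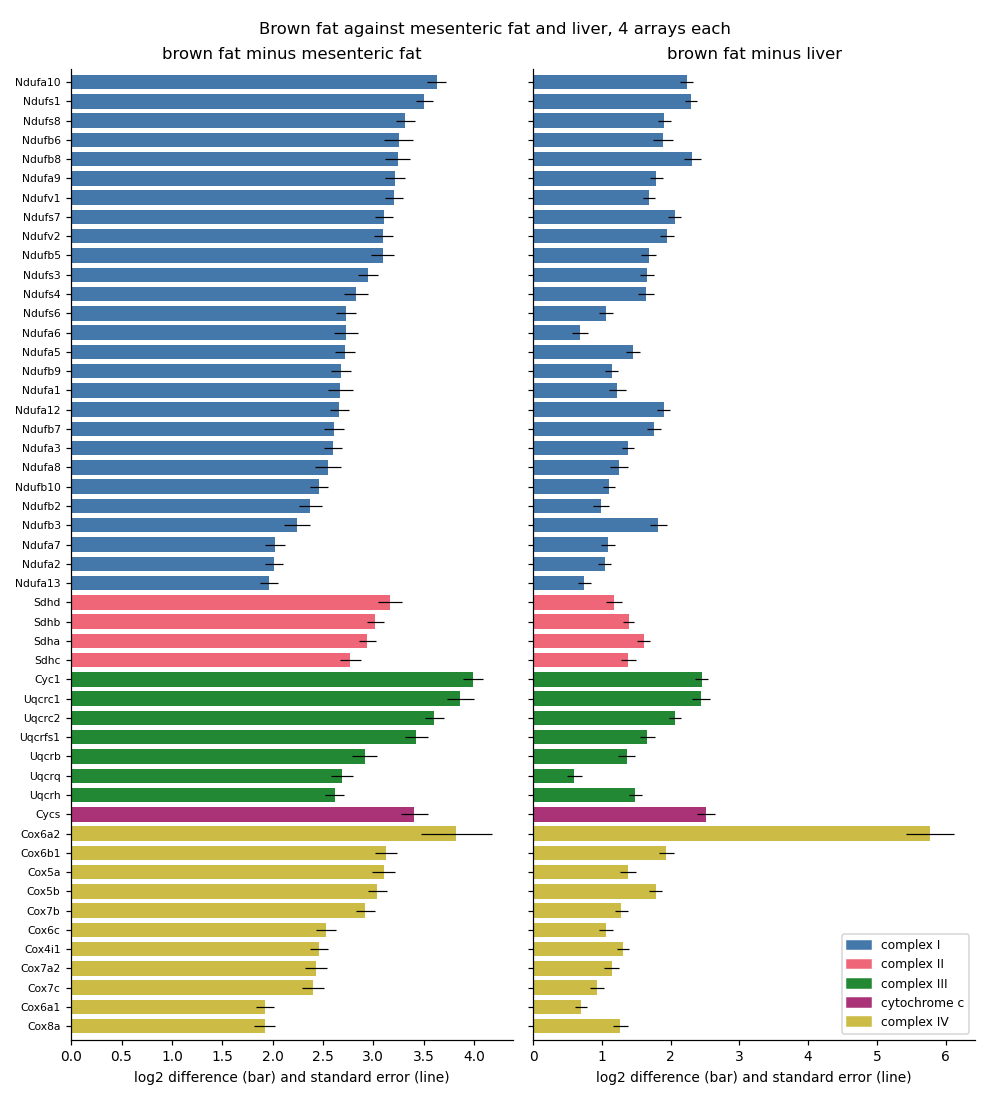
Log2 differences of the 50 genes between brown fat and mesenteric fat (left) and between brown fat and liver (right), with the standard error of the limma fit as a line and 4 arrays per tissue. Bars are grouped by complex; all 50 are above 0 in both panels, from 1.92 to 3.99 against mesenteric fat and from 0.60 to 5.77 against liver.

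The same was true on each diet taken alone and within a slide. On the 2 arrays of 1 diet, all 50 genes were higher in brown fat, with medians of 2.78 log2 on HFD+PP, 2.93 log2 on HFD+Ex, 2.50 log2 on HFD and 3.18 log2 on CD. Slide 2 held 3 brown fat and 2 mesenteric fat arrays, and the median there was 2.88 log2. Mesenteric fat arrays also carried pancreas RNA in unequal amounts: the 15 exocrine pancreas markers summed to 11.19, 9.72, 5.30 and 10.57 log2 on HFD+PP, HFD+Ex, HFD and CD. On HFD, where that sum was lowest, the median difference was also the smallest of the 4 diets. HFD also had the smallest median in the comparisons of brown fat with liver, ileum and colon, at 1.31, 2.04 and 1.96 log2. The part of pancreas RNA in the differences was not tested.

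Liver, itself rich in mitochondria, was closer to brown fat. Again all 50 genes were higher in brown fat, by a median of 1.47 log2, with a highest adjusted p of 0.00021 (limma), where 73.0% of all genes were called and 41.1% were called higher. The smallest differences were those of Uqcrq, a small subunit of complex III, at 0.60 log2 (1.51-fold), Ndufa6 at 0.68 log2 and Cox6a1 at 0.69 log2. The largest after Cox6a2 were Cycs at 2.52 log2 and Cyc1 at 2.45 log2. Ndufb8, a complex I subunit often used as a marker of the assembled complex, led complex I with 9.07 ± 0.27 log2 in brown fat and 6.76 ± 0.07 log2 in liver (SD, n = 4 each). No slide held arrays of both tissues. With slide added to the fit, which leaves colon out, 47 of the 50 were called higher. That fit called 7555 of all 16813 genes either way, where the reported fit called 12274.

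Against the gut, brown fat was again higher for all 50 genes. The median difference was 2.40 log2 against ileum, where 81.0% of all genes were called and 46.3% were called higher. It was 2.21 log2 against colon, where the shares were 78.4% and 44.1%. In both, Cox6a2 and Ndufa10 were the genes with the largest differences, at 5.94 and 3.65 log2 against ileum and at 4.91 and 3.24 log2 against colon. Cox6a1 was among the 3 smallest in each, at 1.52 and 1.40 log2. The 1 brown fat array that shared a slide with the 4 ileum arrays gave a median of 2.44 log2. No slide held arrays of both brown fat and colon.

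Among the tissues other than brown fat, liver stood above mesenteric fat for 49 of the 50 genes, by a median of 1.35 log2. In that comparison 81.3% of all genes were called, 43.6% higher and 37.6% lower (limma, adjusted p under 0.05). Uqcrq led with 8.73 ± 0.03 log2 in liver and 6.63 ± 0.05 log2 in mesenteric fat (SD, n = 4 each; 4.27-fold), followed by Ndufa6 at 2.05 log2 and Sdhd at 1.98 log2. The smallest positive difference was that of Ndufb3, an accessory subunit of complex I, at 0.42 log2, where the ranges of the 2 tissues overlapped. Signs here depended on how arrays were scaled: with quantile normalization Ndufb3, Cox8a, Ndufa12, Ndufb7, Cox6a1, Cycs, Ndufa7 and Ndufb8 were below 0, from -0.54 log2 for Ndufb3 to -0.012 log2 for Ndufb8. Under that scaling 39 of the 50 were called higher, 4 were called lower, and the median was 0.47 log2. The 1 gene lower in liver was Cox6a2, at -3.35 ± 0.80 log2 in liver and -1.40 ± 0.60 log2 in mesenteric fat (SD, n = 4 each; limma adjusted p = 0.000135).

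Ileum and colon were the closest of the pairs compared. Of the 50 genes, 3 were called higher in ileum and 20 were called lower, where 45.5% of all genes were called, 19.4% higher and 26.1% lower, and the median was -0.20 log2. The higher ones were Cycs at 0.46 log2 (limma adjusted p = 0.011), Ndufb7 at 0.35 log2 (adjusted p = 0.00792) and Uqcrq at 0.33 log2 (adjusted p = 0.0265). Complex I held 13 of the 20 lower genes, led by Ndufa1, with 5.84 ± 0.15 log2 in ileum and 6.67 ± 0.09 log2 in colon (SD, n = 4 each; limma adjusted p = 7.19e-05), Ndufa6 at -0.73 log2 and Ndufa7 at -0.67 log2. Complex IV held 5, with Cox6a2 at -1.04 log2 and Cox5b at -0.48 log2. The other 2 were Sdhc and Uqcrb. The 4 ileum arrays were on slide 3 and the 4 colon arrays on slide 4, so tissue and slide cannot be told apart here. Without the HFD+Ex arrays 8 genes were called lower, and without the HFD+PP arrays 10.

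Cox6a2 stood apart from the other 49 genes. It encodes the isoform of a complex IV subunit that is restricted to heart, skeletal muscle and brown fat, where Cox6a1 serves other tissues. Its level was 3.11, 2.43, 2.12 and 2.03 log2 in brown fat on HFD+PP, HFD+Ex, HFD and CD. In mesenteric fat it was -1.93, -1.70, -0.55 and -1.43 log2, and in liver -3.74, -2.59, -2.77 and -4.28 log2. The brown fat arrays lay above all 16 others. Its standard deviation within tissues, 0.551 log2, was the highest of the 50, whose median was 0.124 log2. Skeletal muscle markers were also present in brown fat, with a summed level of 7.83, 7.26, 6.86 and 7.29 log2 on HFD+PP, HFD+Ex, HFD and CD, against 3.57 to 3.76 log2 in mesenteric fat. All 14 of those markers were well above background on the brown fat arrays, and their part in the level of Cox6a2 was not tested.

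Other tissue-restricted isoforms of complex IV, which are not among the 50, were also highest in brown fat, by unequal amounts. Cox7a1, the heart and muscle partner of the widely expressed Cox7a2, averaged 9.40 ± 0.16 log2 in brown fat and 1.87 ± 0.34 log2 in mesenteric fat (SD, n = 4 each), a difference of 7.52 log2. Cox8b, the muscle and brown fat counterpart of Cox8a, differed by 5.63 log2. Against liver, Cox8b differed by 13.19 log2 and Cox7a1 by 7.69 log2. Cox4i2, the isoform known from lung, differed by 1.64 log2, which was less than the 2.46 log2 of its common partner Cox4i1. Cox6b2, the isoform known from testis, differed by 1.62 log2, against 3.12 log2 for its common partner Cox6b1; this pair was chosen after its values were seen. The restricted isoform thus had the larger difference in the Cox6a, Cox7a and Cox8 pairs and the smaller one in the Cox4 and Cox6b pairs. The difference between partners was not tested.

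**Figure D3:**
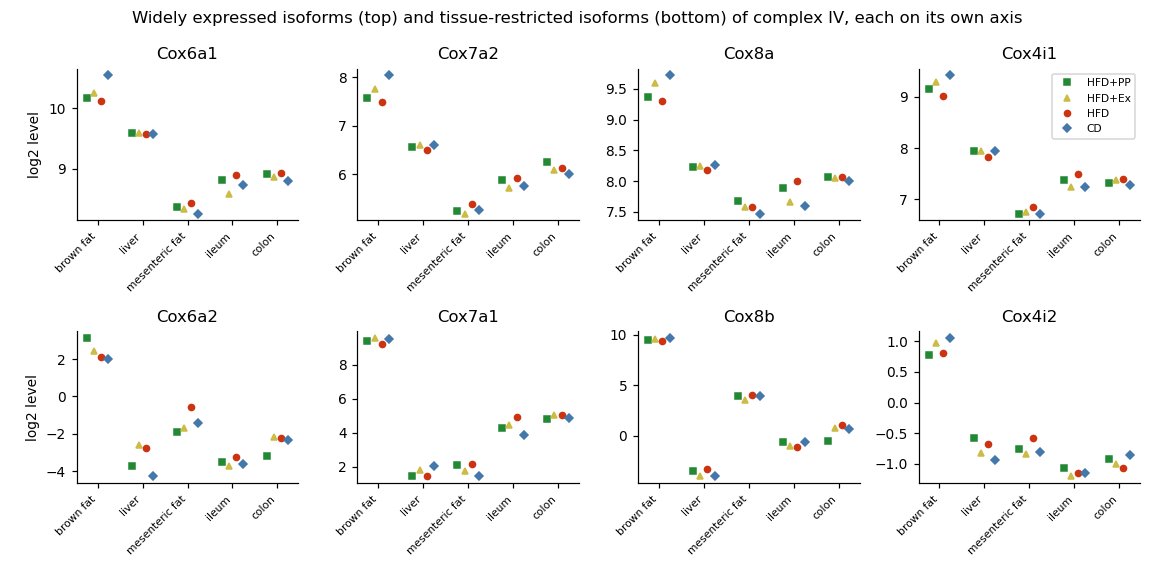
Log2 levels of 4 widely expressed complex IV isoforms (top) and their tissue-restricted partners (bottom) on each of the 20 arrays, with a symbol per diet and an axis per gene. All 8 genes were highest in brown fat; Cox7a1 and Cox8b stood near 9.4 and 9.5 log2 there and at 1.87 and 3.88 log2 on average in mesenteric fat.

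Related mitochondrial genes were set beside the 50 as counts in the comparison of brown fat with mesenteric fat. Over all genes 75.5% were called there and 42.6% were called higher. All 17 other nuclear subunits and isoforms of the chain were higher, with a median of 2.49 log2. So were all 29 factors that assemble the complexes (median 1.98 log2), led by Uqcc1, an assembly factor of complex III, at 3.30 log2. All 16 enzymes of the citric acid cycle and of pyruvate dehydrogenase were higher too, with a median of 3.51 log2. Citrate synthase, Cs, a common measure of mitochondrial content, differed by 2.93 log2. The 16 proteins of import and of the mitochondrial membranes had a median of 1.89 log2. These groups moved alongside the respiratory chain, and the medians were not tested against each other.

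Regulators of mitochondrial number split. Of 16 such genes, 12 were called higher in brown fat than in mesenteric fat and 3 were called lower. Of all genes 75.5% were called either way and 42.6% higher. Esrrg, an estrogen-related receptor, was 5.17 log2 higher, and the coactivators Ppargc1b and Ppargc1a were 4.77 and 4.15 log2 higher. Esrra was higher by 2.85 log2, Gabpa by 1.48 log2 and Tfam, which packs mitochondrial DNA and starts its transcription, by 1.32 log2. Those lower were Pprc1 at -0.68 log2, Gabpb1 at -0.38 log2 and Nrf1 at -0.26 log2 (limma adjusted p = 0.00648).

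ATP synthase, which spends the gradient that the chain builds, held the exception. Of its 15 nuclear subunits, 14 were higher in brown fat than in mesenteric fat, where 42.6% of all genes were. The median over the 15 was 2.41 log2. Atp5g1 was lower, by -1.68 log2. It encodes 1 of the 3 copies of the c subunit that forms the rotor ring, and low expression of this copy is known from rodent brown fat. Its level was 3.58, 3.33, 3.71 and 3.33 log2 in brown fat on HFD+PP, HFD+Ex, HFD and CD, against 5.09, 5.11, 5.30 and 5.18 log2 in mesenteric fat. Against liver the difference was -4.33 log2 (limma adjusted p = 6.8e-14), and Atp5g3 and Atp5j were lower as well, at -1.05 and -0.46 log2. Atp5g1 was also below ileum, by -3.38 log2, and below colon, by -3.42 log2. Atp5g3 was the only other of the 15 called lower in these comparisons. It averaged 7.35 log2 in brown fat, 7.62 log2 in ileum and 7.63 log2 in colon.

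For the diets each group was a single array, so a difference has no replicate check and no test, and only a change of at least 1 log2 either way is called. By the scatter of replicate spots within an array, a difference between 2 arrays has a standard deviation of 0.093 log2 from the spots alone. That value leaves out all variation between arrays, slides, mice and pools. The HFD array of a tissue serves in all 3 comparisons of that tissue, so these are not independent. Counts of genes above or below 0 are given without the share of all genes on that side. They therefore cannot be weighed against all genes.

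In brown fat, nearly all of the genes were slightly lower on the high fat chow. On HFD, 49 of the 50 genes were lower than on CD, and 0 passed 1 log2, where 9.35% of all genes did. The median of the 50 was -0.50 log2, against -0.13 log2 over all genes measured, and the middle of the genes lay between -0.58 and -0.46 log2 (quartiles). The lowest were Ndufs4, a complex I subunit whose loss causes Leigh syndrome in humans, at -0.74 log2, Uqcrb of complex III at -0.74 log2 and Ndufa6 at -0.70 log2. Ndufs4 stood at 6.53 log2 on HFD and 7.27 log2 on CD. Except for Cox6a2 at 0.09 log2, the smallest differences were those of Ndufa2 and Ndufv1, each at -0.36 log2.

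The medians of the complexes lay close together. They were -0.51 log2 for complex I, -0.45 for complex II, -0.49 for complex III, -0.61 for Cycs and -0.49 for complex IV. ATP synthase subunits and assembly factors had similar medians, of -0.49 and -0.50 log2. Ucp1 differed by -0.18 log2 and Cs by -0.39 log2. With the diets on 1 array each, the CD array was the highest for 48 of the 50 genes and the HFD array the lowest for 47.

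The size of this difference hung on the scaling. The 75th percentile that was subtracted was 8.01 log2 on the CD array, the lowest of the 20 arrays, and 8.36 log2 on the HFD array. Spots well above background made up 50.7% on CD, again the lowest share, and 56.5% on HFD. The part of this in the difference was not tested. With quantile normalization the median was -0.06 log2, with 36 genes below 0 and 14 above. With the authors' own scaling it was -0.22 log2, and with normexp background correction -0.44 log2, each with 49 genes below 0. Relative to the median of all genes it was -0.37 log2 as reported and -0.06 log2 after quantile normalization. Markers of other cells moved with it. The 12 macrophage markers summed to 6.00, 5.59, 6.52 and 4.79 log2 on HFD+PP, HFD+Ex, HFD and CD, and 9 of the 11 measured rose past 1 log2 on HFD against CD, with a median of 1.99 log2. Of the 9 hepatocyte markers 6 rose past 1 log2 and 1 fell past it, with a median of 2.55 log2, while their summed level stayed between 3.94 and 4.25 log2. Only 6 of the 9 were well above background on CD, against 9 on HFD, so some of these differences start from values near background. Brown fat cell markers had a median of -0.30 log2. The part of these cells in the result was not tested.

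**Figure D4:**
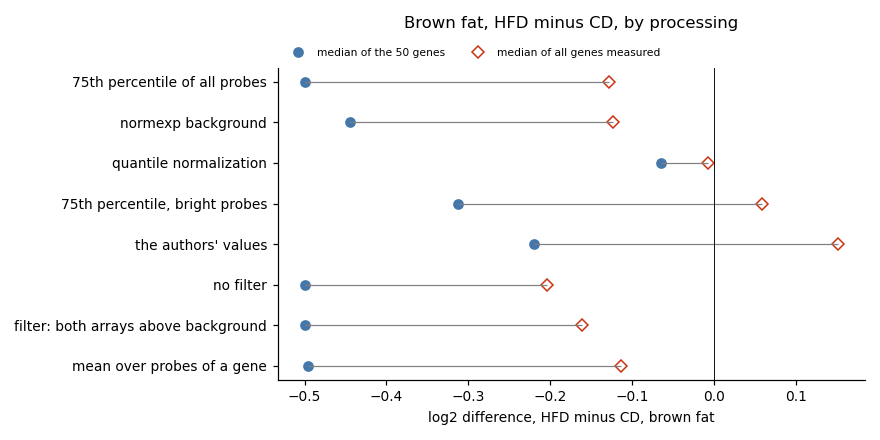
Median log2 difference of the 50 genes (filled) and of all genes measured (open) between HFD and CD in brown fat, under each way of processing the arrays. The median of the 50 lies below that of all genes in every case, and the gap is -0.37 log2 as reported and -0.06 log2 after quantile normalization.

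Both supplements were above HFD in brown fat, and how far depended on the scaling. After quantile normalization the medians were 0.081 log2 for HFD+PP and 0.11 log2 for HFD+Ex, each larger than the -0.064 log2 of HFD against CD under that scaling; under the other settings run each was smaller. On HFD+PP 48 of the 50 genes were higher than on HFD, with a median of 0.14 log2 against 0.03 log2 for all genes, and 0 passed 1 log2 (1 with normexp), where 3.69% of all genes did. The highest were Cox6a2 at 0.99 log2 and Uqcrfs1, the Rieske iron-sulfur protein, at 0.34 log2. Ndufa13 and Ndufv1 were both at -0.04 log2. Ckm, a muscle enzyme, rose by 1.02 log2 between the same arrays, and the skeletal muscle list had a median of 0.92 log2. The hepatocyte and macrophage markers had medians of -2.98 and -0.65 log2, and their part was not tested. Only 6 of the 9 hepatocyte markers were well above background on HFD+PP, against 9 on HFD.

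On HFD+Ex all 50 genes were above HFD, with a median of 0.29 log2 against 0.09 log2 for all genes, and 0 passed 1 log2, where 4.16% of all genes did. Ndufb6 was highest at 0.50 log2, and Cox6a1 and Cox7b were lowest at 0.13 and 0.14 log2. Hepatocyte and macrophage markers had medians of -1.80 and -1.03 log2 between these arrays, and their part was not tested. The HFD+Ex array of brown fat was on another slide than the HFD array, so diet and slide cannot be told apart. On all 4 arrays the median level of the 50 was 8.21 log2 on HFD+PP, 8.30 on HFD+Ex, 7.98 on HFD and 8.53 on CD, with values scaled to the 75th percentile.

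**Figure D5:**
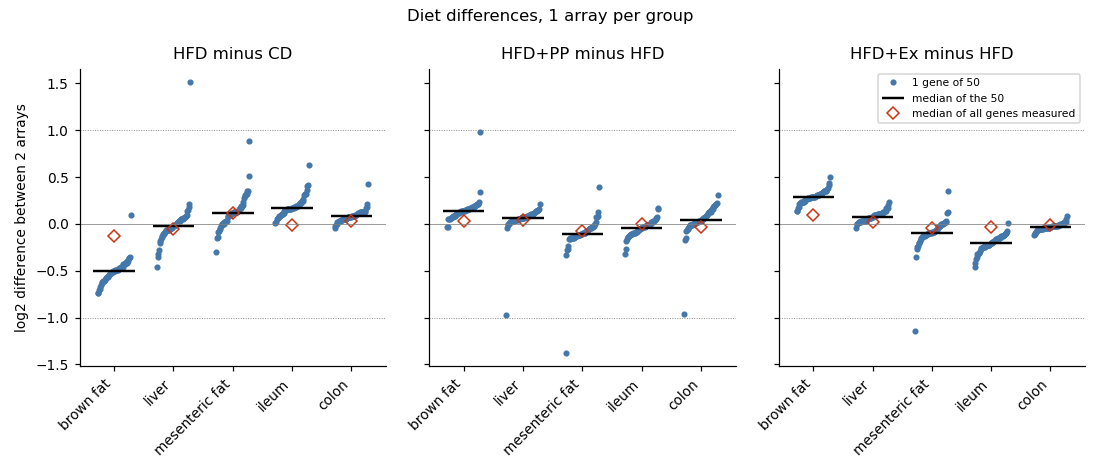
Log2 differences between 2 arrays for each of the 50 genes in 5 tissues, with the median of the 50 (bar) and of all genes measured (diamond). Dotted lines mark 1 log2; the brown fat genes lie near -0.50 for HFD minus CD, and the points beyond the dotted lines are Cox6a2 in liver and in mesenteric fat.

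In ileum the pattern had the opposite sign and was smaller. All 50 genes were higher on HFD than on CD, with a median of 0.17 log2 against -0.01 log2 for all genes, and 0 passed 1 log2, where 3.89% of all genes did. Uqcrc1 stood at 4.63 log2 on HFD and 4.01 log2 on CD, a difference of 0.63 log2, and Cox8a followed at 0.42 log2. Ndufa5 was lowest at 0.01 log2. The median was 0.055 log2 after quantile normalization and 0.074 log2 with the authors' values. White fat cell markers had a median of -1.79 log2 between the same arrays, smooth muscle markers one of -0.51 log2 and intestinal epithelium markers one of 0.41 log2, and their part was not tested.

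On the nori extract the ileum genes were lower. On HFD+Ex 49 of the 50 were below HFD, with a median of -0.20 log2 against -0.03 log2 for all genes, and 0 passed 1 log2, where 1.85% of all genes did. Cox6a2 was lowest at -0.45 log2, then Uqcrq at -0.42 log2. The median was -0.11 log2 after quantile normalization and -0.13 log2 with the authors' values. Smooth muscle markers had a median of 0.40 log2 between these arrays, intestinal epithelium markers one of -0.24 log2 and B and T cell markers one of -0.50 log2, and their part was not tested. On HFD+PP the median was -0.05 log2, with 38 genes below HFD and 12 above (23 below and 27 above with the authors' values), and 0 past 1 log2 against 2.91% of all genes. The HFD array of ileum was the highest of the 4 for 38 genes, and the HFD+Ex array the lowest for 36.

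In mesenteric fat the medians of the 50 genes lay near those of all genes. On HFD the median was 0.12 log2 above CD, where all genes also had 0.12 log2 (0.02 log2 with dim genes kept), and 0 of the 50 passed 1 log2, where 17.3% of all genes did. Ndufb3 at 0.52 log2 and Cycs at 0.36 log2 were the highest after Cox6a2, and Uqcrfs1 was lowest at -0.30 log2. Relative to HFD the median was -0.10 log2 on HFD+PP, against -0.07 log2 for all genes, and -0.09 log2 on HFD+Ex, against -0.05 log2. All 3 were nearer 0 with the authors' values, at 0.031 log2 for HFD minus CD and -0.032 and -0.023 log2 for the supplements. Cox6a2 fell in both, to -1.93 log2 on HFD+PP and -1.70 log2 on HFD+Ex, against -0.55 log2 on HFD. Those differences were -1.38 log2, where 8.91% of all genes passed 1 log2, and -1.14 log2, where 7.42% did, and no other gene of the 50 passed. With normexp the second was -0.92 log2. Pancreas and lymphocyte markers differed widely between these arrays: the B and T cell sum was 6.50, 6.43, 4.19 and 7.50 log2 on HFD+PP, HFD+Ex, HFD and CD. The supplement arrays were on another slide than the HFD array, so diet and slide cannot be told apart.

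Liver and colon had small medians, whose sign in liver depended on the scaling. In liver, HFD minus CD had a median of -0.03 log2, with 21 genes above 0 and 29 below, and 0.091 log2 after quantile normalization, with 42 above and 8 below. Cox6a2 was the 1 gene of 50 past 1 log2, where 4.79% of all genes were, rising by 1.51 log2. With normexp background correction the same difference was 0.44 log2. Its level on CD lay near the lowest values well above background on that array. Ndufa6 at -0.45 log2 and Sdhd at -0.36 log2 were the lowest. The supplements gave liver medians of 0.07 log2 for HFD+PP and 0.08 log2 for HFD+Ex against HFD, with 0 genes past 1 log2 in either, where 2.12% and 3.06% of all genes were. After quantile normalization they were -0.022 log2, with 15 genes above 0, 35 below and 1 past 1 log2, and -0.0022 log2, with 24 above and 26 below. Cox6a2 stood at -0.97 log2 between HFD+PP and HFD.

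In colon the medians were 0.04 log2 for HFD+PP minus HFD, -0.04 log2 for HFD+Ex minus HFD and 0.08 log2 for HFD minus CD, and the second was 0.0023 log2 after quantile normalization. None of the 50 passed 1 log2 in any of these, and the shares of all genes that did were 2.83%, 1.52% and 2.15%. Cox6a2 was at -3.21 log2 on HFD+PP and -2.24 log2 on HFD, a difference of -0.97 log2, and the skeletal muscle sum on those arrays was 5.74 and 6.24 log2. Ndufb6 had the largest difference between HFD and CD in colon, 0.43 log2. Cycs led the genes on HFD+PP relative to HFD, at 0.31 log2.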

How the data were processed

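RNA pooled from 7 mice per tissue and diet was measured on 20 one-colour Agilent arrays. Per the file headers, the authors' scanner files came from Agilent Feature Extraction 11.5.1.1 and hold 1 processed intensity per spot, background-subtracted on a linear scale. The deposited series matrix holds an intensity that equals the processed signal times 1 factor per array, so the authors' scaling is linear and not centred, and the target of the factor is not given in the sources used here.

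Control spots (3671 of 62976) and outlier spots were left out and replicate spots averaged, giving 55681 probes. Accessions matched the RefSeq table of GRCm38.p6 for 28026 probes and 21154 genes, and the brightest probe stood for a gene. Values are log2 signal minus the array's 75th percentile. Between 50.7% and 67.9% of spots were well above background and none was saturated. The number of arrays limits the precision.

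Tissues were compared with limma 3.58.1 in R 4.3.3, with terms for tissue and diet, on 16813 genes well above background on all 4 arrays of at least 1 tissue. Diet is the block because the 5 arrays of a diet share mice. P-values were adjusted by Benjamini-Hochberg and called under 0.05. Diets have 1 array per group and no test. Medians and counts were made with Python 3.11.15, pandas 2.3.3 and numpy 2.4.6. The fit was tested on simulated data. Alternatives were normexp background (offset 50), quantile normalization, a percentile over bright probes, the authors' values, other filters, the mean over probes, no diet term, slide as a block and leaving out each diet. The mean signal column was not used; normexp took the median signal.

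The 50 genes, the 16 other lists and the naming rule were chosen with earlier results of these data known. The rule names the 3 highest and 3 lowest genes per tissue comparison, the extremes of each complex, genes of the opposite sign, genes past 1 log2 or the extremes per diet comparison, the 4 isoform pairs, up to 4 genes of each other list, and a fixed set of regulators and markers. The 13 mitochondrially encoded subunits listed matched no probe that could be named and were not analysed here. Promoter windows were read from RefSeq sequences.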

Additional observations from a re-analysis of the deposited data

Results flagged for a closer look

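In each tissue the 4 arrays, 1 per diet, were screened for a gene of the 50 or a median level in which 1 array stood far from the other 3 for the range they spanned. Of 275 such groups 18 met this, and chance alone gives about 1 in 20. The arrays of a tissue differ in diet, so these are values of a diet array as much as of a single library.

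In mesenteric fat the HFD array was high for the median of the 50 genes, at 5.55 log2 where the other diets lay between 5.34 and 5.36 log2. It was also high for Ndufa13 at 7.02 log2, Ndufb7 at 5.58 log2 and Cycs at 5.60 log2. Ndufa10 was low on the HFD+PP array at 3.11 log2, where the others were at 3.15 log2. Ndufs3 at 5.41 log2 and Ndufv1 at 5.65 log2 were low on the CD array.

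In colon the HFD+PP array was high for Uqcrc2, a core protein of complex III, at 6.06 log2, which is also the median of complex III there. It was high for Ndufs4 at 4.34 log2 and Cycs at 6.18 log2, and low for Cox6a2 at -3.21 log2. On the CD array of colon Ndufb3 at 4.71 log2 and Sdha at 5.25 log2 were low.

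In liver the CD array was high for Ndufa8 at 5.14 log2 and low for Ndufb3 at 5.59 log2. Ndufv2 was high on the HFD+PP array at 6.03 log2, and Cox4i1 was low on the HFD array at 7.82 log2.

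In 11 cases the median of the 50 genes lay on opposite sides of 0 in a pair of tissues under the same diet comparison, with at least 40 of the 50 genes on the side of the median in each tissue. For HFD minus CD, brown fat stood at -0.50 log2, which is -0.62 log2 apart from the 0.12 log2 of mesenteric fat, -0.67 log2 from the 0.17 log2 of ileum and -0.58 log2 from the 0.08 log2 of colon. For HFD+PP minus HFD, brown fat at 0.14 log2 was 0.24 log2 above the -0.10 log2 of mesenteric fat, and liver at 0.07 log2 was 0.17 log2 above it. For HFD+Ex minus HFD, brown fat at 0.29 log2 was 0.38 log2 above mesenteric fat, 0.49 log2 above ileum and 0.33 log2 above colon, whose medians were -0.09, -0.20 and -0.04 log2. Liver, at 0.08 log2 in that comparison, was 0.17, 0.28 and 0.11 log2 above the same tissues. With 1 array per group these differences between tissues were not tested, and the liver medians turned sign after quantile normalization. Under that scaling brown fat had 36 genes below 0 for HFD minus CD, and the colon median for HFD+Ex was 0.0023 log2. With the authors' values mesenteric fat had 32 genes above 0 for HFD minus CD, and 32 and 31 below 0 for HFD+PP and HFD+Ex. Brown fat and ileum for HFD+Ex kept opposite signs, with at least 40 genes on each side, in every setting run. Every setting reprocessed the same arrays. The HFD+Ex array of brown fat was on slide 3 and its HFD array on slide 2, so diet and slide cannot be told apart there. The same holds for both supplements in mesenteric fat, whose arrays were on slide 2 and whose HFD array was on slide 1.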

How the results depend on the processing

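In every alternative run, all 50 genes were called higher in brown fat than in mesenteric fat and ileum, and 47 to 50 higher than in liver (47 with slide as a block, 50 otherwise). Over all genes, calls either way against liver numbered 7555 of 16813 with slide as a block and 12274 in the reported fit. The run with slide as a block left colon out, and in all the others the 50 genes were called higher in brown fat than in colon. Leaving out each diet kept 50 calls in these 4 comparisons, 48 to 49 higher and 1 lower for liver against mesenteric fat, and gave 1 to 3 higher and 8 to 19 lower for ileum against colon. Without the replicate block (no diet term) the counts were the same except 22 lower for ileum against colon in place of 20. The diets mark shared mice, so diet was the block in the reported fit. Liver against mesenteric fat gave 4 lower calls with quantile normalization and 2 with the authors' values. In that comparison quantile normalization turned the sign of Ndufa7 (-0.012), Ndufa12 (-0.16), Ndufb3 (-0.54), Ndufb7 (-0.089), Ndufb8 (-0.012), Cycs (-0.058), Cox6a1 (-0.089) and Cox8a (-0.31), and the authors' values turned Ndufb3 (-0.30) and Cox8a (-0.062). With the mean over probes 1 gene was called higher in ileum than in colon. Diet differences have no replicate spread, so a median of the 50 counts as moved where it turned sign or changed by over 1.5 times, which it did in 36 of 105 values. With quantile normalization HFD minus CD was -0.064 log2 in brown fat, 0.091 in liver, 0.18 in mesenteric fat, 0.055 in ileum and 0.029 in colon, HFD+PP minus HFD was 0.081 in brown fat, -0.022 in liver and -0.0013 in ileum, and HFD+Ex minus HFD was 0.11 in brown fat, -0.0022 in liver, -0.11 in ileum and 0.0023 in colon. With the authors' values HFD minus CD was -0.22 in brown fat, 0.067 in liver, 0.031 in mesenteric fat, 0.074 in ileum and 0.025 in colon, HFD+PP minus HFD was -0.0066 in liver, -0.032 in mesenteric fat and 0.0039 in ileum, and HFD+Ex minus HFD was 0.19 in brown fat, 0.021 in liver, -0.023 in mesenteric fat, -0.13 in ileum and -0.013 in colon. With the percentile over bright probes HFD minus CD was -0.31 in brown fat, 0.029 in liver, 0.0094 in mesenteric fat and 0.032 in colon, HFD+PP minus HFD was 0.020 in liver and -0.022 in mesenteric fat, and HFD+Ex minus HFD was -0.034 in mesenteric fat and -0.017 in colon. With normexp HFD minus CD was -0.015 in liver and HFD+Ex minus HFD was -0.022 in colon, and with the mean over probes HFD minus CD was -0.014 in liver. The sign turned in 8 of the 36, in all 3 liver comparisons, in ileum for HFD+PP and in colon for HFD+Ex. The cause was not tested. Over the 4 scalings run (75th percentile, percentile over bright probes, quantile, authors' values) the median of all genes between brown fat and mesenteric fat ran from -0.33 to 0.15 log2, against 2.13 to 2.87 log2 for the 50. Each diet array is 1 pool, so no diet difference has a replicate check.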

Other observations

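The other mitochondrial lists were set beside the 50 in further comparisons. Against liver, where 41.1% of all genes were called higher, 26 of 29 assembly factors were higher in brown fat and 1 was lower: Sco2, which delivers copper to complex IV, at -1.16 log2 (limma adjusted p = 1.2e-06). Of 16 citric acid cycle genes 15 were higher and Suclg2, the GTP-forming subunit of succinyl-CoA ligase, was lower at -1.0 log2, while its ATP-forming partner Sucla2 was higher by 2.88 log2. Of 16 membrane and import proteins 14 were higher, led by the adenine nucleotide carrier Slc25a4 at 4.58 log2, and Tomm70a was lower at -0.85 log2. Of 16 biogenesis regulators 8 were higher, a share near that of all genes, and 3 lower, among them Polg2, a subunit of the mitochondrial DNA polymerase, at -1.59 log2 and Tfam at -0.29 log2. On the diets, Tfam in brown fat stood at 2.80, 2.82, 2.47 and 3.09 log2 on HFD+PP, HFD+Ex, HFD and CD. Sco2, Suclg2, Sucla2, Slc25a4, Tomm70a and Polg2 were named after their values were seen.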
